A study of Mus musculus with 13 samples.

Results

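The comparison set 3 mdx arrays against 3 control arrays of mouse leg muscle at day 14, which are 6 of the 13 arrays of the series. They were chosen by their titles, which name the genotype and the day (taken here as the age of the mice, which the labels do not spell out), and all 12422 probe sets that are not manufacturer controls were carried through. Each array measured total RNA of leg muscle on an Affymetrix oligonucleotide array and gives 1 linear intensity per probe set. In mdx mice the gene for dystrophin is mutated, and the strain is the standard mouse model of Duchenne muscular dystrophy. The other 7 arrays are 3 control and 3 mdx arrays at day 7 and 1 control array at day 23. The sources used here do not give strain, sex, the muscle dissected or whether each array came from a separate animal, so the errors measure only the spread between these arrays. The labels name no treatment.

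Dystrophin links the actin skeleton of the muscle fibre through a membrane complex of dystroglycan, sarcoglycans, sarcospan, syntrophins and dystrobrevin to laminin outside the fibre. Without it the complex is lost from the membrane, fibres are easily torn, and calcium enters. In mdx limb muscle, waves of fibre death followed by inflammation and regeneration from satellite cells begin after weaning, and the preceding weeks are a time of rapid fibre growth in which embryonic and neonatal myosins give way to adult fast and slow forms. Leg tissue is a mixture, so a lower value in these bulk samples cannot separate fewer cells of a type from less RNA per cell.

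The arrays agreed unevenly. Deposited totals over all probe sets ran from 22888147 to 26741294 on the 6 arrays. Each array's mean correlation with the others of its group, over the log2 values, ran from 0.878 on control replicate 2 to 0.934 on mdx replicates 2 and 3. On mdx replicate 1, 23 of the 100 brightest probe sets of the series had deposited values under 50% of their median over the 13 arrays, against 0 or 1 on the other day 14 arrays. Where leaving out 1 of these arrays moved a value strongly, the value without it is given for the lists and genes the results turn on. Of 130 probe sets followed singly, the log2 difference of 41 moved by over 1.5 times without control replicate 2 and that of 6 without mdx replicate 1. Among skeletal muscle markers, Tnnt3, fast troponin T, read at least 28424 on all 6 arrays, and Myh1, a fast myosin heavy chain, at least 30161. Both were lowest on mdx replicate 1. Other markers were not bright throughout: Myh2 read 74.4 to 346, and on mdx replicate 1 Acta1 read 107 and Myh4 185. The Y-linked gene Eif2s3y read 876 to 1631 and Xist 23.9 to 205 on the 6 arrays. All values below are quantile-normalised intensities, and their median over all probe sets and arrays was 620.62.

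At day 14 the clearest differences were higher Snx17, Psmd10 and Myh3 and lower Erdr1 in mdx muscle. Behind them lay many small differences, more of them upward than downward. With limma and Benjamini-Hochberg adjustment at a threshold of 0.05, 6 of 7140 tested probe sets differed, which is 0.0840%. Of these, 4 rose (0.0560%) and 2 fell (0.0280%). At an unadjusted p under 0.05, 1155 probe sets (16.2%) differed, of which 731 (10.2%) read higher and 424 (5.94%) lower in mdx. The fit shares 1 estimate of the spread over both ages. Replicates agreed less well at day 14 (mean correlations 0.878 to 0.934) than at day 7 (0.946 to 0.967). The p-values may therefore be too small at day 14 and too large at day 7. A fit of the day 14 arrays alone gave fewer, as described in the last section. All 3 mdx arrays lay above all 3 control arrays in 720 probe sets (10.1%) and below them in 447 (6.26%). These shares are the background against which the counts in the gene groups are read. The background itself moves when an array is left out. With all arrays, 555 of 5466 tested genes were higher and 319 lower at an unadjusted p under 0.05. Without control replicate 2 these counts were 362 and 221, and without mdx replicate 1 they were 386 and 300. List counts without an array are read against these. The adjusted count was 50, 13 and 53 without control replicate 1, 2 and 3, and 4, 1 and 1 without mdx replicate 1, 2 and 3. The median difference over all tested probe sets was 0.05 on the log2 scale, and 4033 lay above 0 against 3107 below.

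**Figure D1:**
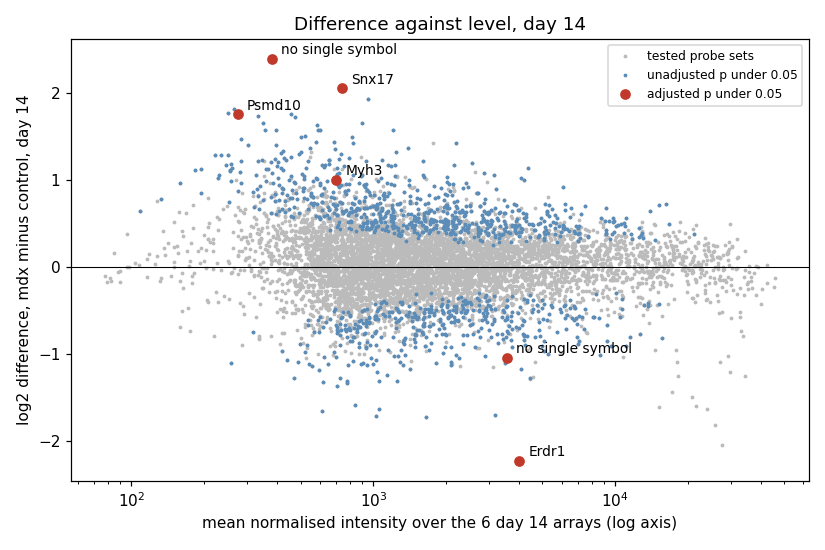
Each point is 1 of 7140 tested probe sets, with its mean normalised intensity over the 6 day 14 arrays on the x axis (log scale) and its log2 difference, mdx minus control, on the y axis. The 6 probe sets past the adjusted threshold are in red, with Snx17 at 2.05 and Erdr1 at -2.22, and blue points had an unadjusted p under 0.05.

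Dmd itself, the gene that is mutated in mdx, served as a check of the labels. It read 1150, 476 and 978 on the control arrays and 353, 314 and 308 on the mdx arrays. The groups did not overlap, the 3 mdx arrays lay close together, and control replicate 2 was the lowest control. The mean was 868 ± 350 (SD, n = 3) in control and 325 ± 24.2 (SD, n = 3) in mdx, and the log2 difference, mdx minus control, was -1.18 ± 0.30 (SE, limma adjusted p = 0.164). That is outside the adjusted threshold. The sources used here do not say where on the transcript the probe set lies. At day 7 the mdx mean was 621 ± 179 against 846 ± 21.4 (SD, n = 3 each), and the day 23 control array read 853.

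Snx17 encodes a sorting nexin that returns integrins and receptors of the LDL receptor family from endosomes to the cell surface. It read 209, 277 and 267 on the control arrays and 1272, 1056 and 1371 on the mdx arrays. Every mdx array was well above every control array, and the ratio of the means was 4.91. The log2 difference was 2.05 ± 0.17 (SE, limma adjusted p = 0.000233). It was past the threshold under 17 of 18 other settings, the exception being the fit of the 6 day 14 arrays alone (0.153). The control arrays at day 14 were the low group: at day 7 the control mean was 1980 ± 205 and the mdx mean 1812 ± 144 (SD, n = 3 each), and the day 23 control array read 1870. A less specific probe set for Snx17 read 1950, 3902 and 1102 in control and 1427, 1466 and 1569 in mdx, with overlapping groups and a log2 difference of -0.44, so the rise rests on a single probe set.

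Psmd10, also called gankyrin, is an assembly chaperone of the proteasome's regulatory particle. It read 113, 104 and 61.2 on the control arrays and 476, 527 and 370 on the mdx arrays, again without overlap. Its log2 difference was 1.75 ± 0.26 (SE, limma adjusted p = 0.0402). All 6 values lay under the median intensity of the series. At day 7 the means were 807 in control and 739 in mdx, and the day 23 control array read 828.

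Myh3 encodes the embryonic myosin heavy chain, which marks newly formed and regenerating fibres. It read 442, 468 and 431 on the control arrays and 883, 858 and 1143 on the mdx arrays. The control values were almost equal and every mdx value was well above them. The log2 difference was 1.00 ± 0.16 (SE, limma adjusted p = 0.0402), a ratio of means of 2.15. Both day 14 groups were far below the day 7 means of 6089 in control and 4528 in mdx, where the log2 difference was -0.42. The day 23 control array read 928, close to the mdx level at day 14. The mdx difference at day 14 exceeded that at day 7 by 1.42 ± 0.22 on the log2 scale (SE, limma adjusted p = 0.098), outside the threshold.

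Erdr1, erythroid differentiation regulator 1, was the only named gene that fell. It read 6252, 8360 and 5219 on the control arrays and 1940, 1297 and 954 on the mdx arrays, with no overlap. The mean fell from 6611 ± 1601 to 1397 ± 501 (SD, n = 3 each), and the log2 difference was -2.22 ± 0.34 (SE, limma adjusted p = 0.0402). At day 7 the same probe set read 19996, 26595 and 15313 in control and 6741, 3532 and 8938 in mdx, again with every mdx array lower. Its second probe set read 2279 ± 116 in control and 1336 ± 396 in mdx at day 14 (SD, n = 3 each), a log2 difference of -0.78. The probe set that fell carries the maker's suffix for members of a sequence family, so related copies may contribute to its value.

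The remaining probe sets past the threshold match several gene symbols each and are left unnamed. In the one that rose, the control arrays read 105, 50.1 and 59.0 and the mdx arrays 1112, 361 and 592, which differ by 2.39 ± 0.38 on the log2 scale (SE, limma adjusted p = 0.0416). In the one that fell, the control arrays read 5609, 4855 and 4032 and the mdx arrays 2308, 2019 and 2586, which differ by -1.04 ± 0.16 on the log2 scale (SE, limma adjusted p = 0.0402). Neither overlapped between the genotypes. Apart from Snx17, every one of the 6 lost its call when mdx replicate 2 or mdx replicate 3 was left out, with adjusted p from 0.0501 to 0.144. Without mdx replicate 1, Psmd10, Myh3 and both unnamed probe sets lost it (0.0875 to 0.104), and without control replicate 2, Erdr1 (0.0627) and the unnamed one that rose (0.0753) did. Their direction held in each case.

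**Figure D2:**
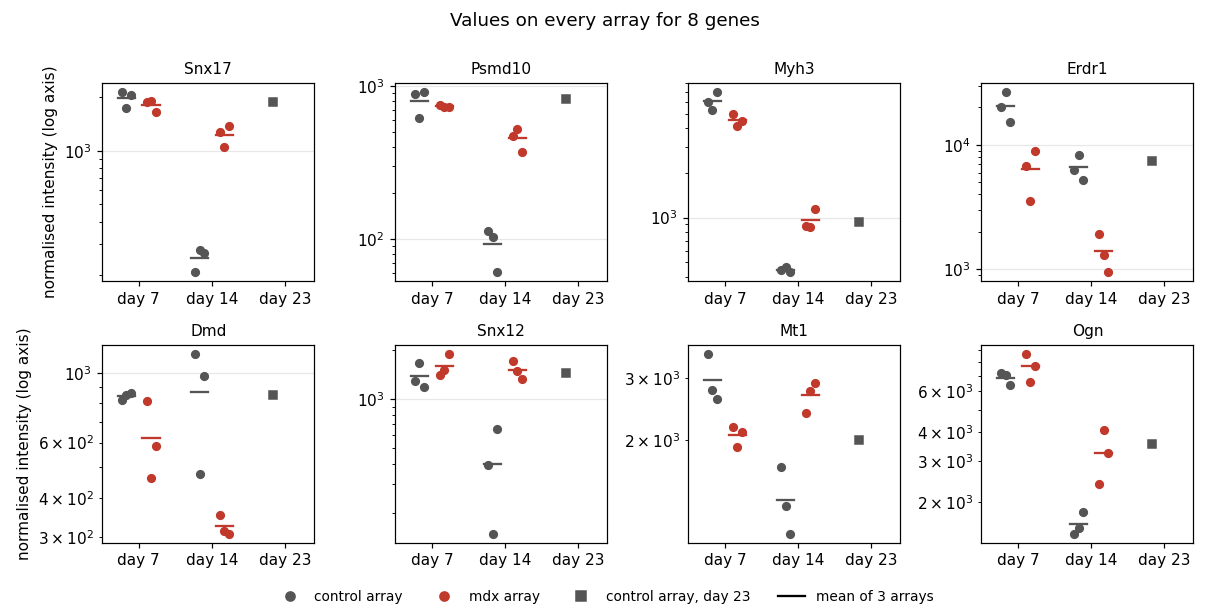
Normalised intensity on a log axis for 8 genes, with a point for every array of control (grey) and mdx (red) at day 7 and day 14, a bar at the mean of 3 arrays and a square for the single control array at day 23. For Snx17, Psmd10, Myh3, Snx12, Mt1 and Ogn the day 14 control mean (251 for Snx17) is the lowest group mean of its panel, whereas in Erdr1 and Dmd the day 14 mdx mean (1397 and 325) is.

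At an adjusted p under 0.10 the count was 17, and the 11 that this added included genes of the endosome, the extracellular matrix and metal binding. Snx12, another sorting nexin, read 394, 149 and 655 in control and 1717, 1485 and 1327 in mdx. Its groups were far apart although the control arrays scattered, and the log2 difference was 1.93 ± 0.34 (SE, limma adjusted p = 0.0561). Ogn encodes osteoglycin, a small leucine-rich proteoglycan of connective tissue. It read 1458, 1548 and 1809 in control and 2390, 4099 and 3260 in mdx, a log2 difference of 0.96 ± 0.18 (SE, adjusted p = 0.0879), and its second probe set gave 0.94. Npnt, or nephronectin, an integrin ligand of the matrix, read 341, 222 and 170 against 681, 486 and 839. Every mdx array was again above every control array, and the log2 difference was 1.26. Larp7, which stabilises the 7SK RNA, differed by 1.76, Blcap by 1.81, Fubp1, a DNA-binding regulator of Myc, by 1.30, the zinc finger gene Zfp777 by 1.40 and Tmem176a, a membrane protein, by 1.39. Their control means lay between 81.7 and 208, under the median intensity, and their mdx means between 419 and 622. Ttc39b differed by -1.71, at 1027, 2127 and 1687 in control and 532, 417 and 360 in mdx. A further probe set, which has no single gene symbol, read 5407, 6914 and 4715 against 2484, 2558 and 2358.

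Among named probe sets with groups that did not overlap and an unadjusted p under 0.05, the 15 highest differences ran from 1.47 to 2.05. Besides those above they were Lclat1, Lgals3, B3gnt2, Dnajb5, Abi1, Smyd2, Lypla1, Zfp281, Chrne and Arid1a. These include a co-chaperone of the HSP40 family (Dnajb5), a lysine methyltransferase (Smyd2), a subunit of the SWI/SNF chromatin remodeller (Arid1a) and an acyl-protein thioesterase (Lypla1). Dnajb5 read 195, 101 and 105 in control and 551, 941 and 239 in mdx. Arid1a read 248, 55.9 and 96.6 against 474, 437 and 397. In both, control values were low and mdx values moderate. Chrne, the adult subunit of the acetylcholine receptor, gave 1.49 in this probe set and -0.17 in its brightest probe set, so its probe sets disagreed. Lypla1 read 36.0 on control replicate 2 and gave 0.78 when that array was left out. Brighter probe sets of Lypla1 gave 0.92, 0.90, 0.17 and -0.15, so they disagreed as well. Smyd2 and Zfp281 gave 1.08 and 1.01 without control replicate 2. The 15 lowest ran from -2.22 to -1.11 and, besides Erdr1, Ttc39b and Dmd, were Zp1, Cyp2c38, C1galt1c1, St6galnac3, Cyp2b10, Rasal1, Dnal4, Lect2, Cmc2, Chrna7, Chaf1a and Lhx1. Several are best known from other tissues, such as the egg coat protein Zp1 and the liver cytochromes Cyp2c38 and Cyp2b10. Zp1 read 957, 1132 and 806 in control and 293, 261 and 237 in mdx. Its day 7 means were 227 and 252, so here the day 14 control group was the high one. The filter kept probe sets above the median intensity on at least 3 arrays, and Zp1 passed it through the day 14 control arrays alone. Lect2 passed through those and mdx replicate 3, and Cyp2b10 through those and mdx replicate 1. Among the highest, Abi1 passed through the day 14 mdx arrays and control replicate 1. In such probe sets the filter itself favoured a separation of the groups. Of the 15 highest and 15 lowest, Snx17, Psmd10 and Erdr1 passed the adjusted threshold.

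Genes of the dystrophin complex other than Dmd mostly read somewhat higher in mdx. Of 24 genes fixed for this list, 18 were on the array and 12 passed the filter on dim probe sets. The median of the 12 differences was 0.33 on the log2 scale, against 0.06 over 5466 tested genes, with 10 above 0 and 2 below. At an unadjusted p under 0.05, 1 was higher (8.33%, against 10.2% of all tested genes) and 1 was lower, namely Dmd (8.33%, against 5.84%). None passed the adjusted threshold. Sspn, sarcospan, a membrane-spanning partner of the sarcoglycans, read 6522, 4734 and 6706 in control and 8194, 8664 and 7741 in mdx. All mdx arrays were higher and the log2 difference was 0.47 ± 0.17 (SE, limma adjusted p = 0.238). Cav3, the caveolin of muscle, read 10842, 10637 and 12716 against 13727, 16079 and 14121, also without overlap, a log2 difference of 0.36 (adjusted p = 0.375). The sarcoglycans Sgca, Sgcb and Sgce gave 0.42, 0.42 and 0.36, all with overlapping groups. Sgca read 5976, 3052 and 6901 in control and 6323, 6747 and 7095 in mdx, and control replicate 2 was the low array. Without that array Sgca gave 0.06, Sgcb 0.14 and Sspn 0.31, and a second Sgca probe set gave 0.21 with all arrays.

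Laminin alpha 2 (Lama2), the matrix ligand of the complex, gave 0.31, or 0.08 without control replicate 2, and dystroglycan (Dag1) 0.18. Utrophin (Utrn), the dystrophin homologue that can take its place, read 795, 388 and 180 in control and 716, 462 and 519 in mdx, a log2 difference of 0.45 ± 0.37 (SE). That difference was smaller than the scatter of the control arrays. Alpha-dystrobrevin (Dtna) gave -0.21, plectin (Plec) 0.19 and the glycosyltransferase Pomgnt1 0.12. Leaving out control replicate 2 gave a list median of 0.15 with 9 of 12 above 0, and without mdx replicate 1 it was 0.34. Delta-sarcoglycan (Sgcd), the syntrophins Sntb1 and Sntb2, beta-dystrobrevin (Dtnb), neuronal nitric oxide synthase (Nos1) and Krt19 were too dim to test.

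Members of the myogenic list, the factors of satellite cells and of muscle differentiation, read slightly higher in mdx. The median of 27 tested genes was 0.22, with 19 above 0. At an unadjusted p under 0.05, 4 (14.8%) were higher and 0 lower, against 10.2% and 5.84% of all tested genes, and none passed the adjusted threshold. Myf5, the myogenic factor of early myoblasts and satellite cells, read 480, 308 and 271 in control and 780, 1060 and 491 in mdx. Its groups only just separated, with a log2 difference of 0.99 ± 0.30 (SE) with a limma adjusted p of 0.206. The E-protein Tcf12, which pairs with the myogenic factors, gave 0.48, and Dll1 and Notch1, ligand and receptor of the Notch pathway that keeps satellite cells quiescent, gave 0.78 and 0.59. Groups overlapped in each of these.

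Myh3 was the only called gene among 20 tested embryonic and neonatal isoforms, whose median was 0.01 with 10 above 0 and 10 below. Neonatal myosin heavy chain (Myh8) read 1861, 4727 and 4378 in control and 4902, 8110 and 4078 in mdx, a log2 difference of 0.68 ± 0.35 (SE, adjusted p = 0.347). Its groups overlapped, and both stood well under the day 7 means of 40373 and 38857. Acta2, smooth muscle actin, which fetal muscle also makes, read 11137, 10279 and 12068 against 16360, 15114 and 12672, a log2 difference of 0.39. The acetylcholine receptor subunit Chrnb1 gave 0.40, also without overlap, and the subunit Chrna1 gave 0.61 with overlap. Ckb, brain-type creatine kinase, went the other way, at 4708, 11399 and 4569 in control and 2239, 3999 and 3594 in mdx, a log2 difference of -0.96 ± 0.33 (SE, adjusted p = 0.227). Its high control value was that of control replicate 2, without which it gave -0.53. Leaving out that array brought Chrnb1 to 0.23 and Chrna1 to 0.25.

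Adult fast fibre genes had a median of -0.36 over 17 tested genes, with 14 below 0, but the value rested on mdx replicate 1. On mdx replicate 1, skeletal alpha-actin (Acta1) read 107, where mdx replicates 2 and 3 read 19835 and 24063 and the control arrays 3716 to 7986. Fast myosin heavy chain Myh4 read 185 there and 32644 and 23786 on mdx replicates 2 and 3. The calcium-storing protein calsequestrin Casq1 read 1116 there, against 35245 and 19794. Without mdx replicate 1 the median was 0.04, with 12 of 17 genes above 0. Leaving out control replicate 2 gave -0.81. Of the 17, only Tnni2, fast troponin I, had an unadjusted p under 0.05 (5.88%), at 10528, 12162 and 13797 in control and 3465, 8732 and 8744 in mdx. All 3 mdx arrays were lower, and the log2 difference was -0.91 ± 0.30 (SE, limma adjusted p = 0.226), or -0.47 without mdx replicate 1. Slow fibre genes, 12 tested, had a median of 0.03, and 0 of them had an unadjusted limma p under 0.05 or passed the adjusted threshold.

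**Figure D3:**
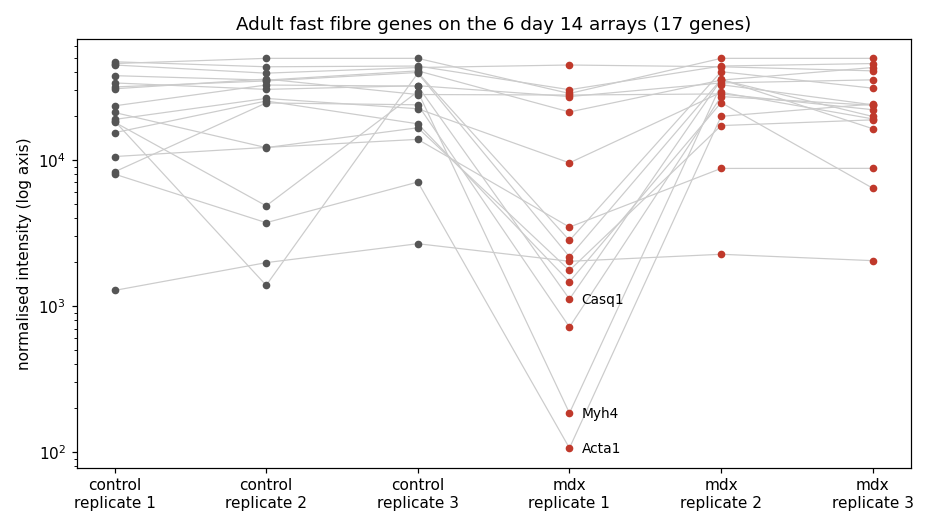
Normalised intensity (log axis) of the 17 tested adult fast fibre genes on each of the 6 day 14 arrays, with grey points for control, red for mdx and a line joining the values of each gene. Acta1 at 107, Myh4 at 185 and Casq1 at 1116 are low on mdx replicate 1, while Pvalb and several others are not. Myh1 is lowest there too, but by less, at 30161 against 43294 to 46850 on the other arrays.

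Membrane repair and calpain genes had a median of 0.19 over 14 tested. At an unadjusted p under 0.05, 3 (21.4%) were higher and 0 lower, against 10.2% and 5.84% of all tested genes. Ehd1, an ATPase that shapes recycling endosomes, read 439, 250 and 920 in control and 640, 1494 and 1209 in mdx, a log2 difference of 1.06 with overlapping groups. Capn2, the large subunit of m-calpain, a calcium-activated protease, read 1758, 867 and 1345 against 1828, 2066 and 1832, a log2 difference of 0.56. Anxa1, an annexin that binds injured membranes, read 2531, 3032 and 2984 against 4040, 3258 and 3920, a log2 difference of 0.38. The groups of these last genes did not overlap, and the adjusted p-values of the 3 genes were 0.237, 0.241 and 0.261. The median of the list was 0.01 without control replicate 2, and Ehd1 and Capn2 then gave 0.67 and 0.30. In that setting, and also without mdx replicate 1, 2 genes were higher and 1 lower at an unadjusted p under 0.05.

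Genes of the neuromuscular junction had a median of 0.07 over 12 tested. Ache, acetylcholinesterase, read 1024, 347 and 744 in control and 1431, 979 and 1738 in mdx, a log2 difference of 0.99, with 1 mdx array just below the highest control array, and 0.59 without control replicate 2. Erbb3, the neuregulin receptor of Schwann cells and fibres, gave -0.45. Of 25 genes for calcium handling and excitation, 2 (8.0%) were higher at an unadjusted p under 0.05, against 10.2% of all tested genes. Ppp3cb, a catalytic subunit of calcineurin, the calcium-dependent phosphatase, read 1964, 703 and 1426 against 2707, 2221 and 2363. Its mdx arrays were all higher, it gave 0.52 without control replicate 2, and the log2 difference was 0.91 ± 0.27 (SE, limma adjusted p = 0.206).

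Among 34 tested growth factor and signalling genes, 6 (17.6%) were higher and 2 (5.88%) lower at an unadjusted p under 0.05. The shares of all tested genes were 10.2% and 5.84%. The list's median was 0.06, the same as over all genes. Bmpr1a, a receptor of bone morphogenetic proteins, read 367, 120 and 263 in control and 438, 835 and 506 in mdx, a log2 difference of 1.11. The kinase Akt1, which acts downstream of insulin and IGF receptors, read 2239, 2844 and 2700 against 3351, 3343 and 3367, with nearly equal mdx arrays, all higher, and a log2 difference of 0.37. Its relative Akt2 gave 0.95. Mstn, myostatin, the secreted inhibitor of muscle growth, read 3748, 1737 and 4004 against 4513, 5723 and 4073, a log2 difference of 0.66. Igf1, which promotes muscle growth, gave -0.44 and Pdgfa -0.48. The adjusted p of these 6 genes ran from 0.206 to 0.290, and without control replicate 2 the list's counts at an unadjusted p under 0.05 were 4 higher and 0 lower, with a median of -0.03. Akt2, Mstn, Igf1 and Pdgfa then gave 0.46, 0.28, -0.26 and -0.18.

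Extracellular matrix genes had a median of 0.02 over 38 tested, with 20 above 0 and 18 below. At an unadjusted p under 0.05, 7 (18.4%) were higher and 1 (2.63%) was lower, against 10.2% and 5.84% of all tested genes. Vcan, the proteoglycan versican, read 1568, 1510 and 1498 in control and 2163, 2315 and 1841 in mdx, and Lum, the proteoglycan lumican, read 5613, 5222 and 6480 against 8764, 7067 and 7244. Both were without overlap, at log2 differences of 0.44 and 0.41. Lox, lysyl oxidase, which crosslinks collagen, gave 0.63 and the collagen chain Col5a2 0.44. Bmp1, a procollagen-cleaving protease, gave -0.45. Without control replicate 2, 3 were higher and 1 lower with a median of 0.10, Lox gave 0.27 and Col5a2 0.27, and without mdx replicate 1 the same counts were found, with a median of -0.02.

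Of 25 tested matrix proteases and inhibitors, 21 read above 0, with a median of 0.22. At an unadjusted p under 0.05, 3 (12%) were higher, against 10.2% of all tested genes. Ctsc, the lysosomal protease cathepsin C, read 738, 328 and 828 in control and 1358, 1121 and 1098 in mdx, a log2 difference of 0.94. Adam9, a membrane metalloprotease, read 905, 886 and 1032 against 1302, 1383 and 1178, a log2 difference of 0.43. In both, every mdx array was above every control array. With control replicate 2 left out the list's median was 0.12 with 17 above 0, and Ctsc gave 0.57.

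Macrophage and myeloid genes split. Of 25 tested, 6 (24.0%) were higher and 0 lower at an unadjusted p under 0.05, against 10.2% and 5.84% of all tested genes. Yet the median was -0.05, with 11 above 0 and 14 below. Lgals3, galectin-3, which macrophages make in injured muscle, read 186, 211 and 17.4 in control and 403, 543 and 647 in mdx, a log2 difference of 1.74 ± 0.42 (SE) with a limma adjusted p of 0.160. Lyz2, lysozyme of myeloid cells, read 1076, 674 and 1374 against 2392, 1719 and 2435, a log2 difference of 1.06 (adjusted p = 0.201). C1qa, a chain of the complement starter C1q made by macrophages, read 1314, 1497 and 1152 against 2272, 1717 and 1824, a log2 difference of 0.53 (adjusted p = 0.210). In all of these genes the mdx arrays stood above the control arrays. Over the 25, this held in 5 genes, and in 2 all mdx arrays lay below, against 553 and 336 of 5466 genes. The lowest difference was -0.82, and every gene named here is one that read higher. Lgmn, a lysosomal protease, gave 0.53, the lysosomal membrane protein Cd63 0.47 and the mannose receptor Mrc1 0.69. None passed the adjusted threshold. At day 7 the differences were -0.30 for Lgals3, -0.16 for Lyz2 and -0.02 for C1qa.

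Summed over the 41 macrophage and myeloid genes on the array, of which 14 never exceeded the median intensity, the marker level was 60633 to 65620 on the control arrays and 61450 to 75797 on the mdx arrays, with overlapping ranges. The highest value was that of mdx replicate 1. Cd63 and Mrc1 gave 0.30 each without control replicate 2. Without mdx replicate 1, 3 of the 25 were higher, with a median of -0.13, and without control replicate 2, 4 were, with a median of 0.08. Sums of the markers of the other cell types also overlapped between genotypes, except that the erythroid sum over 16 genes (5 of them never above the median intensity) was 55871 to 73114 in control and 75473 to 80147 in mdx. The median difference of the 11 tested erythroid genes was -0.16, with 5 above 0 and 6 below and 0 higher at an unadjusted p under 0.05. No marker was at 0. Their part in the differences was not tested. Of 13 tested lymphocyte genes, 0 had an unadjusted limma p under 0.05 and 0 passed the adjusted threshold. Of the 6 tested mast cell and eosinophil genes, the mast cell protease Cpa3 gave 0.77 and the tryptase Tpsb2 -0.52, in opposite directions and both without overlap. The neutrophil receptor Csf3r gave -0.89. In 3 further lists every gene with an unadjusted p under 0.05 was lower, 2 of 14 (14.3%) in epidermis, 2 of 15 (13.3%) in bone and cartilage and 2 of 13 (15.4%) in nerve, against 5.84% of all tested genes, while 5, 7 and 4 genes of these lists lay above 0. The keratins Krt6a and Krt17 of epidermis gave -0.69 and -0.96, the cartilage collagens Col9a1 and Col9a2 -0.78 and -0.53, and the neuronal gene Stmn2 -0.43. Without control replicate 2 the keratins gave -0.42 and -0.48.

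Proteasome genes read higher in mdx across most of the list. Of 40 tested, 34 lay above 0, and the median was 0.23. At an unadjusted p under 0.05, 7 (17.5%) were higher and 0 lower, against 10.2% and 5.84% of all tested genes. In 10 all mdx arrays exceeded all control arrays, against 553 of 5466 genes overall. Only Psmd10 passed the adjusted threshold. Psma2, a subunit of the core ring, read 9436, 4234 and 8022 in control and 11756, 11067 and 10279 in mdx, a log2 difference of 0.68 (limma adjusted p = 0.231). Psma5, another core subunit, read 4738, 4050 and 4788 against 5222, 5501 and 6084, and Psmc2, an ATPase of the regulatory particle, read 5104, 5450 and 4986 against 6777, 6551 and 5682. These 3 did not overlap, and the last ones differed by 0.31 and 0.28. The assembly chaperones Psmg1, Psmg2 and Pomp gave 0.42, 0.53 and 0.61. Leaving out control replicate 2 brought Psma2 to 0.34 and Psmg2 to 0.36. Without control replicate 2, 30 of 40 lay above 0, with a median of 0.13 and 4 higher, against 362 of 5466 genes overall. Without mdx replicate 1, 34 of 40 lay above 0, with a median of 0.22. In that setting 9 were higher and 1 lower, against 386 and 300 of 5466 genes.

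The atrophy and autophagy list had a median of 0.23 over 24 tested genes. At an unadjusted p under 0.05, 4 (16.7%) were higher and 0 lower, against 10.2% and 5.84% of all tested genes. Without control replicate 2 the median was 0.08, again with 4 higher. With all arrays the 4 were the metallothioneins Mt1 and Mt2, the lysosomal membrane protein Lamp2, at 0.71, and the ubiquitin-conjugating enzyme Ube2g1, at 0.56, or 0.46 and 0.32 without that array. Of 27 endosome and sorting nexin genes, 4 (14.8%) were higher and 0 lower, against the same 10.2% and 5.84%. They included Snx12, the early endosome GTPase Rab5a at 0.42, Snx5 at 0.51 and the retromer subunit Vps35 at 0.34. In this list Snx17 is represented by its brighter, less specific probe set. Without control replicate 2, 2 were higher.

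Mt1 and Mt2 encode metallothioneins, small zinc- and copper-binding proteins. Their genes lie next to each other and answer to metals, glucocorticoids and oxidative stress, to metals through metal response elements. Because the pair read in the same direction at each age, the 250 bases before each RefSeq gene start are shown (GRCm38.p6, plus strand, chr8:94178839-94179088 for Mt1 and chr8:94172368-94172617 for Mt2). Capitals mark matches to TGCACNC or TGCGCNC, the core of the metal response element, on either strand.
Mt1: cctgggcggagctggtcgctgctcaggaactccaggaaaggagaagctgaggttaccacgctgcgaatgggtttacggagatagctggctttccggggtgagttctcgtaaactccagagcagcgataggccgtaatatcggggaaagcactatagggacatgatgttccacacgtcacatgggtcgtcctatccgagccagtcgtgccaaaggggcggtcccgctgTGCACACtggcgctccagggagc
Mt2: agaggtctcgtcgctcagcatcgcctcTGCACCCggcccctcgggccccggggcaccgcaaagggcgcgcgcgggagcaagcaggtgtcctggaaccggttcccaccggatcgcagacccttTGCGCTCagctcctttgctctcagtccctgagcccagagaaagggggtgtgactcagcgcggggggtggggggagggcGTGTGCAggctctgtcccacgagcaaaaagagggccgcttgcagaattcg
The window of Mt1 held 1 match and that of Mt2 held 3. Of 32851 promoters of the same length, 21.4% held at least 1 and 5.17% held 2 or more. A match is a description of the letters and not evidence of binding.

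Mt1 read 1680, 1299 and 1088 on the control arrays and 2385, 2752 and 2910 on the mdx arrays. The mdx mean was 2682 ± 270 against 1356 ± 300 (SD, n = 3 each), a log2 difference of 0.97 ± 0.18 (SE) with a limma adjusted p of 0.0607. Mt2 read 5902, 4098 and 4102 against 6152, 8726 and 8347, a log2 difference of 0.72 ± 0.18 (SE, adjusted p = 0.164). Neither gene's groups overlapped, although in Mt2 control replicate 1 and mdx replicate 1 were close. At day 7 the log2 differences were -0.50 and -0.55. The difference between the ages was 1.47 ± 0.25 for Mt1 (SE, limma adjusted p = 0.104), outside the threshold. Of the 27 tested genes of oxidative stress defence, which include this pair, 2 (7.41%) were higher and 2 (7.41%) lower at an unadjusted p under 0.05. The lower ones were Hmox1, haem oxygenase 1, at 5130, 5928 and 4981 in control and 3674, 3676 and 3797 in mdx, and Gpx1, glutathione peroxidase 1, at 3803, 6044 and 4272 against 3584, 3027 and 3409. Both separated, with log2 differences of -0.51 and -0.46, the latter -0.27 without control replicate 2. Neither passed the adjusted threshold, and the share of higher genes was below that of all tested genes (10.2%).

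Of the 24 tested heat shock and endoplasmic reticulum stress genes, 19 lay above 0, and the median was 0.15. At an unadjusted p under 0.05, 4 (16.7%) were higher and 0 lower, against 10.2% and 5.84% of all tested genes. The 4 were Hspa5, Xbp1, Pdia3 and Pdia6, which act in the endoplasmic reticulum, and none passed the adjusted threshold. Hsp90b1, another chaperone there, gave 0.25 and did not reach an unadjusted p under 0.05, and Pdia4, of the same family as Pdia3, gave 0.11. Many such genes carry the endoplasmic reticulum stress element, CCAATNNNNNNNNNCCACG, before their start. The promoters of Hspa5, Xbp1, Pdia3, Pdia6, Hsp90b1 and Pdia4 were searched, and 3 held a match. The 250 bases before the starts of 2 of them are shown (RefSeq, GRCm38.p6, plus strand, chr2:34771840-34772089 for Hspa5 and chr12:17266339-17266588 for Pdia6), with the match in capitals.
Hspa5: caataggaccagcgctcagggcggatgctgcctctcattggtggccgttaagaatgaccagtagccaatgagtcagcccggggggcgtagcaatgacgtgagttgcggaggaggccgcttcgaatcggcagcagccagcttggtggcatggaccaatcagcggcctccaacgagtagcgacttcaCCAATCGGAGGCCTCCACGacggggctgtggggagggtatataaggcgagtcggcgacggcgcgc
Pdia6: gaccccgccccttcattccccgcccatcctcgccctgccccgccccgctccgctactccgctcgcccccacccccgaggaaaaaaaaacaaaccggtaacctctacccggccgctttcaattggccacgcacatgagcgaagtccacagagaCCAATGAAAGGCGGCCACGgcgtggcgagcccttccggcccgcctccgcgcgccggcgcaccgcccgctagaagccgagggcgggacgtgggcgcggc
The match lay 65 to 47 bases before the start of Hspa5 and 98 to 80 before that of Pdia6. On either strand, 37 of 32851 promoters of this length (0.113%) held 1. Hsp90b1 held 2, and Pdia3, Xbp1 and Pdia4 held none in this window, so matches were found on both sides of the unadjusted threshold.

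Hspa5, the chaperone BiP, read 8454, 7464 and 8159 on the control arrays and 12041, 11899 and 10575 on the mdx arrays. The groups were well apart and tight, at 8026 ± 508 and 11505 ± 809 (SD, n = 3 each), a log2 difference of 0.52 ± 0.15 (SE) with a limma adjusted p of 0.206. Pdia3, a protein disulfide isomerase, read 2363, 1209 and 3546 against 4223, 4188 and 3829, a log2 difference of 0.89 (adjusted p = 0.226). Pdia6, of the same family, read 1499, 812 and 1764 against 2388, 2368 and 1549, a log2 difference of 0.65 with overlap, and its other tested probe sets gave 1.12 without overlap and 0.53 with overlap. Xbp1, a transcription factor of the unfolded protein response, read 2633, 1567 and 3285 against 4171, 4177 and 3258, a log2 difference of 0.67. Control replicate 2 was the lowest array for each of these genes. Without it the differences of Pdia3, Xbp1 and Pdia6 were 0.48, 0.38 and 0.33. The list's counts were again 4 higher and 0 lower, with 20 of 24 above 0.

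No gene of energy metabolism passed the adjusted threshold. Of 57 tested genes of oxidative phosphorylation and 27 of glycolysis and glycogen, 0 had an unadjusted limma p under 0.05 and 0 passed the adjusted threshold, with medians of -0.02 and -0.11. The latter was 0.10 without mdx replicate 1. Of 25 genes of fatty acid oxidation, 2 (8.0%) were higher and 0 lower at an unadjusted p under 0.05, against 10.2% and 5.84% of all tested genes. Immediate early genes had a median of 0.07 over 19 tested, with 4 (21.1%) higher and 0 lower, against the same shares. Fos, a subunit of the transcription factor AP-1, read 905, 2040 and 1135 in control and 2848, 2998 and 3022 in mdx, a log2 difference of 1.17 ± 0.46 (SE) with a limma adjusted p of 0.256. Every mdx array was higher, and the mdx arrays were nearly equal. Junb gave 0.92, the phosphatase Dusp1 0.52 and Klf6 0.47, the last 0.24 without control replicate 2. Without control replicate 2 or without mdx replicate 1, 2 of the 19 were higher.

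**Figure D4:**
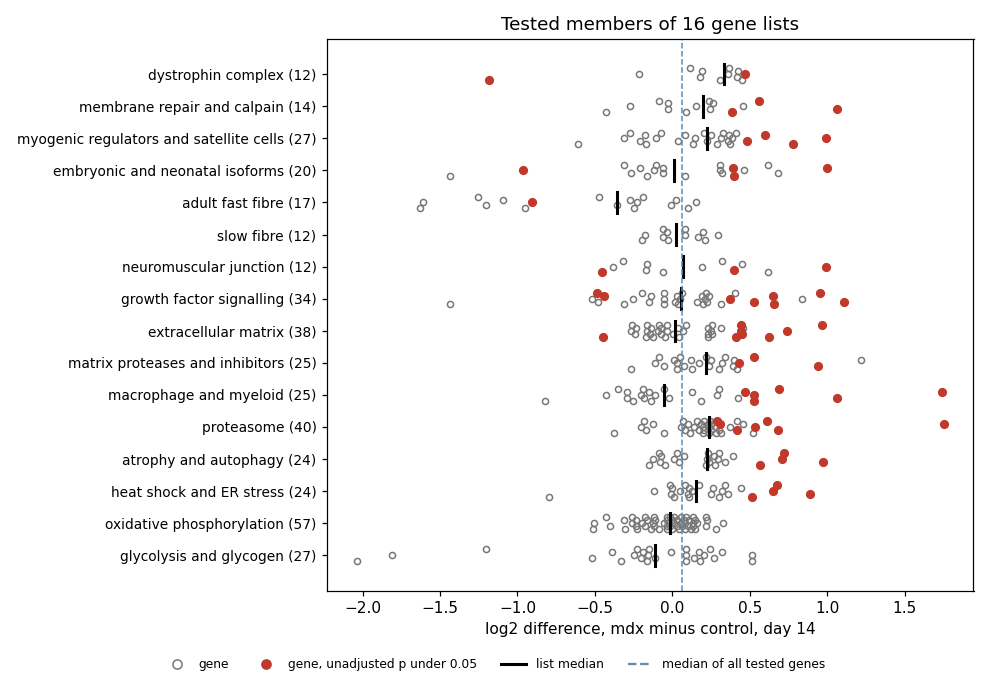
Log2 differences, mdx minus control at day 14, of the tested members of 16 gene lists, with the number tested in brackets. Open circles are genes, red circles genes with an unadjusted p under 0.05, black bars list medians and the dashed line the median of all 5466 tested genes (0.06). Proteasome genes lie mostly to the right (34 of 40 above 0), and adult fast fibre genes reach far to the left.

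The genotypes were compared at day 7 in the same fit. The day 7 contrast uses other arrays but shares its estimate of the spread with day 14. In it 258 probe sets (3.61%) had an unadjusted limma p under 0.05 and 0 passed the adjusted threshold. Of all tested probe sets, 3.61% were thus in the day 7 list and 16.2% in the day 14 list. The overlap was near those shares, at 52 probe sets, which is 4.50% of the day 14 list and 20.2% of the day 7 list. Of these, 22 had the same direction at both ages and 30 the opposite direction. The genes named next were chosen after their values were seen. Erdr1 gave -2.22 at day 14 and -1.74 at day 7 on the log2 scale, while its second probe set gave -0.78 and -0.05. Klf1, an erythroid transcription factor, gave -0.92 at each age, and at day 14 read 1454, 1172 and 1099 in control and 519, 720 and 640 in mdx. Aqp4, the water channel of fast fibres that is tied to the dystrophin complex through syntrophin, gave 0.76 at day 14 and 0.45 at day 7. It read 2563 ± 547 in control and 4372 ± 761 in mdx at day 14 (SD, n = 3 each). The brighter Aqp4 probe set gave 0.42 at day 14 and 0.43 at day 7. The tetraspanin Tspan8 gave 1.17 and 1.14, Fos 1.17 and 1.38, and Dusp1 0.52 and 0.47. Among those with opposite directions, the growth arrest gene Gadd45b gave 1.10 at day 14 and -1.30 at day 7, and Anxa1 0.38 and -0.38. Myh3, Mt1 and Mt2 belonged to them as well.

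**Figure D5:**
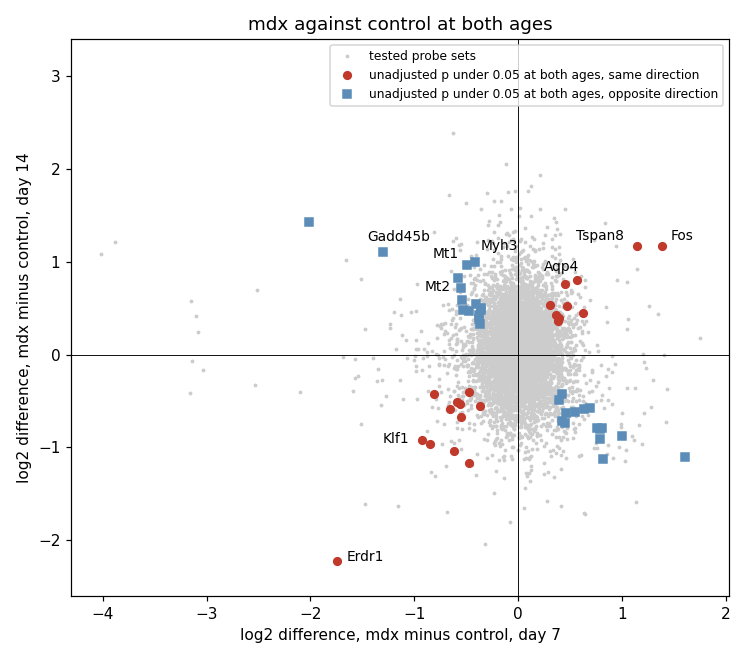
Log2 difference, mdx minus control, at day 14 (y axis) against day 7 (x axis) for the 7140 tested probe sets in grey. Red points had an unadjusted p under 0.05 at both ages in the same direction (22) and blue squares in the opposite direction (30), with Erdr1 at the lower left.

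The test of the difference itself, the mdx effect at day 14 minus that at day 7, called 1 probe set (0.0140%), that of Snx17 described above, at 2.17 ± 0.24 on the log2 scale (SE, limma adjusted p = 0.00618). At an unadjusted p under 0.05 the count was 678 (9.50%). The adjusted count was 14, 2 and 4 without control replicate 1, 2 and 3 of day 14.

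Probe sets of the same gene were also compared within the arrays. Among 862 genes with several tested probe sets, 266 had at least 1 with an unadjusted p under 0.05. In 173 of them another probe set had the same direction. In 27 another also had an unadjusted p under 0.05 in that direction, and in 12 another had it in the opposite direction. At that threshold 10.2% of all tested probe sets read higher and 5.94% lower, so some such genes are found at background. Whether the 27 exceed it was not tested. Capn6, a calpain without protease activity, was among the 27. Its 3 probe sets gave 1.29, 0.62 and 0.35, and the middle one read 2775 ± 836 in control and 4196 ± 418 in mdx (SD, n = 3 each). Ogn, Pdia6 and Erdr1 were among them too.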

How the data were processed

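The authors deposited 1 linear intensity per probe set and array, made by the maker's standard protocol per the labels. Which software combined the probes of a set is not given in the sources used. The deposited means after trimming 2% at each end were 1500.69 to 1501.09, so arrays had been scaled alike. Of 12488 probe sets, 66 controls were left out; 10833 of the rest had 1 gene symbol, 396 several and 1193 none. The 13 arrays were quantile-normalised, a pseudocount of 62.062 (10% of the median) was added before log2, which understates fold changes of dim genes, and 7140 probe sets above the median on at least 3 of 12 arrays were tested with limma 3.58.1 in R 4.3.3 (1 fit of 12 arrays, 8 residual degrees of freedom, variance trend, Benjamini-Hochberg). Values printed are without the pseudocount. Lists use each gene's brightest probe set. The rule for named genes took all probe sets past the threshold, the 15 largest non-overlapping differences each way, the dystrophin complex and, per other list, the 3 smallest p-values and 2 brightest genes, of which the text names those it describes; other genes were chosen after their values were seen. The members and lists were chosen with earlier results of these data known. In simulated data for this comparison, with 6894 probe sets, 53.7% of log2 changes of 1 and 93.5% of 2 were recovered. The simulated noise was normal, with 1 spread per probe set over both ages and no outlying arrays. The simulation gave 143 calls, of which 5 were false. That number follows from how many changes were planted, so it cannot be set against the 6 calls in the data. The real day 14 arrays were less even, so these rates may be too high for them. For arrays, their number limits precision.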

Additional observations from a re-analysis of the deposited data

Results flagged for a closer look

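The difference of Snx17 between mdx and control changed with age. It was 2.05 on the log2 scale at day 14 and -0.12 at day 7, and the difference between the ages was 2.17 ± 0.24 (SE, limma adjusted p = 0.00618). All 3 mdx arrays were above all 3 control arrays at day 14, and the groups overlapped at day 7, where the control arrays read 2133, 1747 and 2061 and the mdx arrays 1886, 1904 and 1646. Groups of 3 arrays are too small for a test of single outlying arrays, and none was made.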

How the results depend on the processing

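The 6 calls at day 14 became 1 with a pseudocount of 20% of the median, 1 without a filter, 1 with array weights, 2 with the values as deposited, 2 with arrays scaled to the same median, 12 without a variance trend, 17 at an adjusted p under 0.10 and 2 without the 3 arrays with low bright probe sets (chosen after seeing the data). With the 6 day 14 arrays alone limma called 0 (598 at an unadjusted p under 0.05). Leaving out single day 14 arrays gave 1 to 53. The single call for the difference between ages became 2 without a variance trend and 0 without those 3 arrays (340 at an unadjusted p under 0.05), and 1 to 14 on leaving out single arrays. With the replicate number within age as a block, limma called 1 probe set at day 14 and 0 for the difference (592 at an unadjusted p under 0.05). Same-numbered control and mdx arrays of day 14 had deviations that correlated at 0.0817, -0.146 and -0.0222. These values showed no pairing by number, but 3 arrays per group are too few to settle it. On leaving out single arrays, the direction turned for Snx17's second probe set (-0.87 to 0.017, above 0 without control replicate 2), Sgca's second probe set (-0.040 to 0.37, below 0 without control replicate 2), Pomgnt1 (-0.068 to 0.27, below 0 without control replicate 2), the brightest Chrne probe set (-0.29 to 0.046, above 0 without control replicate 2), Utrn (-0.0049 to 0.91, below 0 without control replicate 3) and Plec (-0.023 to 0.55, below 0 without mdx replicate 2). Scaling to the same median moved the median of all probe sets from 0.05 to 0.14 and 12 list medians by more than the spread within groups. The causes were not tested. Dim probe sets, with signal near background, have the least precise values.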
